A study of Homo sapiens with 2 samples.

Results

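Glycolysis and the cell's response to low oxygen were examined through 33 genes: 21 glucose transporters and glycolytic enzymes, and 12 genes of the hypoxia response. The genes were chosen by name, as the main isozymes of each step and widely used hypoxia genes, with earlier results of these data known. All 33 were found among the 26485 genes of the deposited count table. RNA-seq had been made from SK-LMS-1 and SK-UT-1, established human leiomyosarcoma cell lines, which are grown from malignant tumours of smooth muscle. Both had received DMSO, the solvent used to deliver drugs, and the labels name no other treatment of these 2 libraries. The series as a whole concerns an inhibitor of the histone methyltransferase SUV39H2 combined with a PARP inhibitor in uterine leiomyosarcoma. Each line was represented by 1 library, so every value below compares 2 libraries, line and library cannot be told apart, and no test was possible. The labels give no oxygen level, glucose level or cell density.

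Glycolysis turns glucose into pyruvate in the cytosol, and lactate dehydrogenase turns pyruvate into lactate when it is not passed to the mitochondria. Several steps are served by isozymes, enzymes that carry out the same reaction but are encoded by different genes and differ in regulation or affinity. When oxygen is low, prolyl hydroxylases (the EGLN genes) stop marking HIF alpha proteins for destruction, and the HIF factors then bind a short DNA core, often ACGTG, near target genes that include many glycolytic enzymes. HIF alpha is controlled mainly at the protein level, so transcript levels alone do not measure HIF activity.

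The SK-LMS-1 library held 6906280 counts and the SK-UT-1 library 7635850. Values given in pairs without a line name are in that order. Levels are given as CPM, counts divided by the TMM-scaled library size and expressed on a fixed total, and as CPM per kilobase (kb) of exon where different genes are compared. Measured genes are those that reached 1 CPM in either library. Of 12 smooth muscle markers, 10 were measured (summed level 1469 CPM in SK-LMS-1 and 529 CPM for SK-UT-1). Of these, 6 were beyond 2-fold toward SK-LMS-1 and 3 toward SK-UT-1 (60% and 30%, beside 21.9% and 18.3% of all measured genes). The contractile regulator MYLK was at 414 CPM in SK-LMS-1 against 9.94 in SK-UT-1, whereas ACTA2, smooth muscle actin, was at 10.5 and 54.0 CPM. MYOCD, the master factor of smooth muscle, had 0 counts in both lines, and MYH11 (5 and 2 counts) was not measured. DES was low, with 1 count in SK-LMS-1 against 26 in SK-UT-1 (3.23 CPM), and is among the 3 toward SK-UT-1. Among 11 markers of immune, endothelial and epithelial cells, 4 were measured (summed level 104 and 35.4 CPM), and PTPRC, VWF and KDR had 0 counts in both libraries. CD68, a lysosomal gene used as a macrophage marker, was at 91.9 CPM in SK-LMS-1 against 14.5 CPM in SK-UT-1. The epithelial marker KRT19 was at 9.92 and 19.3 CPM. The other measured markers were low: EPCAM (epithelial) had 1 and 9 counts and PECAM1 (endothelial) 8 and 0. The part of these marker differences in the results below was not tested.

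By unscaled library totals, the members took nearly the same slice of each library. They held 0.898% of the SK-LMS-1 library (exact 95% interval 0.891 to 0.905) against 0.896% in SK-UT-1 (0.890 to 0.903). With TMM scaling, their summed level was 9465 CPM in SK-LMS-1 against 8505 CPM in SK-UT-1. Of the 31 measured members, 6 were higher by 2-fold or more in SK-LMS-1 (19.4%, against 21.9% of the 14324 measured genes) and 4 higher by 2-fold or more in SK-UT-1 (12.9%, against 18.3%). The first were SLC2A1, PFKP, HIF1A, EPAS1, VEGFA and NDRG1. The second were ALDOC, TPI1, LDHB and ADM. Both shares lie near or below those of all genes. Scaling by library totals or by the upper quartile would lower the median ratio of all genes by 0.15 and 0.13 on the log2 scale, and under both PFKP and HIF1A drop below 2-fold and PGAM1 passes it toward SK-UT-1. At 20 CPM or more, where 28 members remained, 6 and 3 of them passed, against 18.3% and 11.6% of 8445 genes. The median log2 ratio (SK-LMS-1 over SK-UT-1) was 0.19 over the members and 0.0088 over all measured genes.

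**Figure D1:**
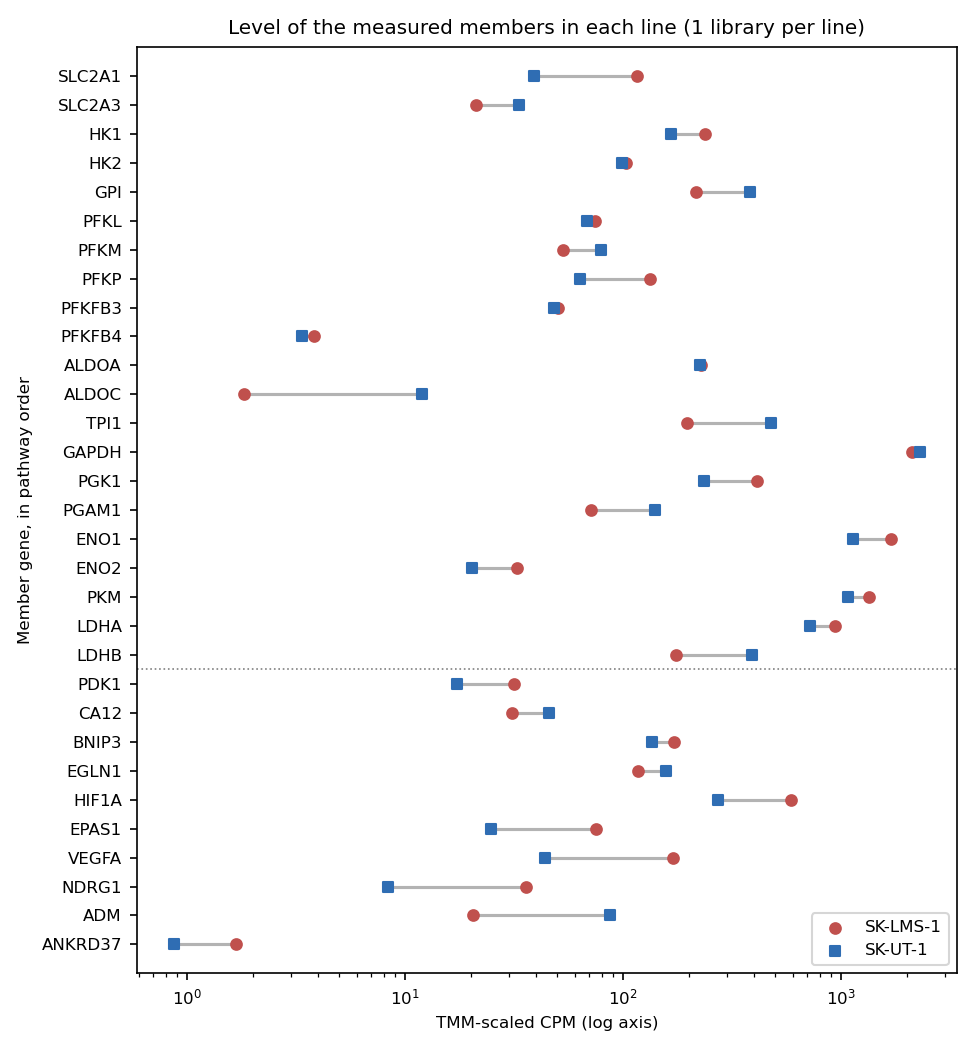
Level of each of the 31 measured members in SK-LMS-1 (circles) and SK-UT-1 (squares), in TMM-scaled CPM on a log axis, with 1 library per line and the hypoxia genes under the dotted line. Levels span from 0.870 CPM (ANKRD37) to 2296 CPM (GAPDH); CA9 and EGLN3, below 1 CPM, are not drawn.

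Stretches before the transcription start show where the ACGTG core lay for a few members, picked for illustration. They come from the RefSeq promoter table (GRCh38.p14), which holds entries for 30 of the 33 members and none for SLC2A3, VEGFA or NDRG1. Capitals mark ACGTG or its reverse complement CACGT, which merge into CACGTG where they overlap. The first LDHA line is chr11:18394313-18394387 (plus strand) and the second is a site of 30 bases at chr11:18394468-18394497. LDHB, its sister isozyme, is chr12:21657972-21658092 (minus strand). PGK1, whose step rests on 1 member, is chrX:78103998-78104168 (plus strand). ALDOC is a site at chr17:28577114-28577143 (minus strand), and CA9, a much used hypoxia marker with almost no counts here, is a site at chr9:35673898-35673927 (plus strand).
LDHA upstream: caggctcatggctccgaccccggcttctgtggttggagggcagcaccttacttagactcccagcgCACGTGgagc
LDHA site: ccgactcaCACGTGggttcccgCACGTccg
LDHB upstream: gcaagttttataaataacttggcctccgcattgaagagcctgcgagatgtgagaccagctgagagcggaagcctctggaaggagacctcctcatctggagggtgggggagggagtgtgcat
PGK1 upstream: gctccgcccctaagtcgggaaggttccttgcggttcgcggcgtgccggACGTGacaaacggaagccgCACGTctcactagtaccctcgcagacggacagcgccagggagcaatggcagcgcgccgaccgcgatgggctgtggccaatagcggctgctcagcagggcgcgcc
ALDOC site: gtgcccggCACGTGgtaaagggattgtggc
CA9 site: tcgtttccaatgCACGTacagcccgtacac

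In the 250 bases before the start, LDHA held the core at 3 places (first of its listed starts) and LDHB at none. The other listed LDHA start also had none. PGK1 and ALDOC each held 2 places, and CA9 held 1. ALDOA, the sister isozyme of ALDOC, is not printed and held 1 place in each of its listed windows. CACGTG is also the E-box bound by factors such as MYC, so the letters do not name 1 factor. Over all members with an entry, 17 of 30 genes (56.7%) had the core in at least 1 such window, against 21.7% of the 27305 genes of the table. Counted by window, because several genes have more than 1 start, 20 of 53 (37.7%) held it, against 18.5% of 35116. By level, it was found in 1 of 4 members higher by 2-fold or more in SK-LMS-1, in 2 of 4 higher in SK-UT-1 and in 13 of 20 within 2-fold. These matches describe letters in a window and nothing about binding.

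The transcripts of the glucose transporters differed between the lines in level and in proportion, with SLC2A1 the leading gene in both. SLC2A1 encodes GLUT1, the widely expressed basal glucose transporter, and lies at chr1:42925375-42959176 (hg38, as all gene positions below). It had 756 counts in SK-LMS-1 against 313 in SK-UT-1, or 115 and 38.9 CPM, a 2.97-fold higher level in SK-LMS-1 (exact 95% interval 2.60 to 3.40, counting error only). SLC2A3 encodes GLUT3, a transporter of higher glucose affinity best known from neurons, and it leaned the other way, with 21.1 CPM in SK-LMS-1 against 33.2 CPM in SK-UT-1 (1.58-fold, 1.28 to 1.95). Per kb, SLC2A1 thus made up 85.5% (83.0 to 87.7) of the pair in SK-LMS-1 but 55.7% (51.6 to 59.8) in SK-UT-1. The ratio of SLC2A1 to SLC2A3 was 4.67 times greater in SK-LMS-1 (3.64 to 6.01), a figure in which gene length and library scaling cancel.

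Other members of the glucose transporter family also divided between the lines. SLC2A6 had 10 counts in SK-LMS-1 against 212 in SK-UT-1 (17.3-fold, 9.20 to 36.5), whereas SLC2A13, a proton and inositol carrier, had 180 and 49 (4.51-fold higher in SK-LMS-1, 3.27 to 6.32). SLC2A12 was at 17.6 and 8.95 CPM, and SLC2A10 at 20.1 and 21.5 CPM. SLC2A8 was at 6.87 and 8.95 CPM. SLC2A2, the transporter of liver and pancreatic beta cells, had 0 counts in SK-LMS-1 against 17 in SK-UT-1. With the 0 raised to a floor of 3 counts, SLC2A2 was 4.61-fold higher in SK-UT-1. The lower limit of its exact counting interval was 3.36-fold.

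Hexokinase traps glucose in the cell as glucose 6-phosphate. HK1, the housekeeping form, led in both lines, at 55.7 CPM per kb in SK-LMS-1 against 38.9 in SK-UT-1, or 1.43 times the SK-UT-1 level (1.33 to 1.54). HK2, the form typical of insulin-sensitive tissue and often raised in tumours, was at 103 and 98.5 CPM, and the interval of its ratio (0.944 to 1.16) included no difference. HK1 accounted for 79.3% (77.8 to 80.8) of the pair per kb in SK-LMS-1 but 73.7% (71.9 to 75.4) in SK-UT-1, and its ratio to HK2 was 1.37 times greater in SK-LMS-1 (1.20 to 1.56). The HK1 share depended on length: by raw counts it was 69.8% and 62.8%, and by coding length 69.7% and 62.7%. ADPGK, an ADP-dependent glucokinase, was at 41.7 and 60.8 CPM. GPI, which converts glucose 6-phosphate to fructose 6-phosphate, was at 1.77 times the SK-LMS-1 level in SK-UT-1 (1.66 to 1.89), at 217 and 384 CPM, but it is also listed on an alternate chromosome 19 contig, which makes its count uncertain.

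Phosphofructokinase, the committed and most regulated step, had a different mixture of its 3 subunits in each line. PFKP, the platelet type (chr10:3067520-3136805), had 868 counts in SK-LMS-1 against 511 in SK-UT-1 and was at 2.09 times the SK-UT-1 level in SK-LMS-1 (1.87 to 2.33). PFKM, the muscle type, had 347 and 635 counts and was at 1.49 times the SK-LMS-1 level in SK-UT-1 (1.30 to 1.70). PFKL, the liver type, was at 74.3 and 68.6 CPM, with an interval that included equality (0.957 to 1.23). Per kb, PFKP, PFKL and PFKM held 55.6%, 27.1% and 17.3% of the step in SK-LMS-1, against 34.4%, 32.4% and 33.2% in SK-UT-1. SK-LMS-1 thus leaned on PFKP, while in SK-UT-1 the 3 subunits stood nearly level. Which subunit came first in SK-UT-1 depended on the length used: PFKP by exon length, and PFKM by raw counts or by coding length. The ratio of PFKP to PFKM was 3.11 times greater in SK-LMS-1 (2.61 to 3.70), and that of PFKP to PFKL 1.92 times greater (1.63 to 2.28). The PFKM to PFKL ratio in SK-LMS-1 was 0.620 of that in SK-UT-1 (0.516 to 0.744).

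PFKFB enzymes make and remove fructose 2,6-bisphosphate, the strongest activator of phosphofructokinase. PFKFB3, the form with high kinase activity, was at 50.4 CPM in SK-LMS-1 against 48.2 in SK-UT-1. PFKFB4 was low in both, with 25 and 27 counts. PFKFB3 formed 90.5% of the pair in SK-LMS-1 against 91.2% in SK-UT-1, and the ratio of ratios, 0.919, had an interval of 0.502 to 1.69, so a difference within that range was not detectable at this depth. PFKFB2, the heart form, was at 17.6 and 16.5 CPM. TIGAR, a phosphatase that removes fructose 2,6-bisphosphate and diverts sugar to the pentose phosphate pathway, was at 2.02 times the SK-LMS-1 level in SK-UT-1 (1.69 to 2.42), at 26.7 and 53.9 CPM.

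Aldolase splits the 6-carbon sugar into a pair of trioses. ALDOA, the muscle and general form, was nearly equal, at 71.0 CPM per kb in SK-LMS-1 against 69.6 in SK-UT-1 (ratio interval 0.951 to 1.09). ALDOC, the brain form (chr17:28573115-28576933), had 12 counts in SK-LMS-1 against 96 in SK-UT-1 and was at 6.51 times the SK-LMS-1 level in SK-UT-1 (3.56 to 13.0), the largest ratio of any measured member, with an interval that overlaps those of NDRG1, ADM, VEGFA, EPAS1 and ANKRD37. It remained the minor isozyme, with 1.54% of the step per kb in SK-LMS-1 (0.799 to 2.67) against 9.40% in SK-UT-1 (7.72 to 11.3). By raw counts these shares were 0.794% and 5.05%, and by coding length 0.911% and 5.75%. The ALDOA to ALDOC ratio was 6.64 times greater in SK-LMS-1 (3.61 to 13.3).

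The steps of the lower pathway that rest on 1 member each did not move together. TPI1, which interconverts the trioses (chr12:6867420-6870946), was at 2.44 times the SK-LMS-1 level in SK-UT-1 (2.29 to 2.60), at 196 and 479 CPM. GAPDH, often used as a reference gene, was the most abundant member, at 2120.0 CPM in SK-LMS-1 against 2296 CPM in SK-UT-1, a ratio of 1.08 toward SK-UT-1 (1.06 to 1.11). PGK1, the first step that yields ATP, was at 1.76 times the SK-UT-1 level in SK-LMS-1 (1.66 to 1.86), at 414 and 235 CPM. The next enzyme, PGAM1, was at 1.96 times the SK-LMS-1 level in SK-UT-1 (1.76 to 2.19), at 71.4 and 140.3 CPM. PKM, pyruvate kinase of muscle and tumours, was at 1.24 times the SK-UT-1 level in SK-LMS-1 (1.21 to 1.28), at 1345 and 1080.5 CPM. Counts by gene do not separate its splice forms M1 and M2. From GAPDH through PGK1 and PGAM1 to ENO1, the direction thus changed at each enzyme, although GAPDH differed little. BPGM, which makes 2,3-bisphosphoglycerate, was at 19.5 and 11.2 CPM, and PGAM4 had 3 and 17 counts (4.61-fold, 1.33 to 24.6). PGAM4 is a near copy of PGAM1, so reads may be split between them.

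The isozyme mix of enolase was alike in both lines within counting error. ENO1, the general form, was at 521 CPM per kb in SK-LMS-1 against 347 in SK-UT-1, or 1.5 times the SK-UT-1 level (1.46 to 1.54). ENO2, the neuronal form, was 1.61-fold higher in the same line (1.31 to 1.99), at 13.5 and 8.36 CPM per kb. The share of ENO1 was therefore alike, 97.5% (97.1 to 97.8) and 97.6% (97.3 to 98.0), and the ratio of ratios was 0.931 (0.753 to 1.15). ENO3, the muscle form, had 15 counts in each library.

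Lactate dehydrogenase showed the clearest shift among the abundant enzymes. LDHA encodes the M subunit, which favours lactate formation, and LDHB the H subunit, prominent in heart and favouring pyruvate. LDHA had 6130 counts in SK-LMS-1 against 5791 in SK-UT-1, or 1.30 times the SK-UT-1 level (1.25 to 1.35). LDHB (chr12:21635341-21657855) had 1150 and 3132 counts, or 2.22 times the SK-LMS-1 level (2.07 to 2.37). Per kb, LDHB took 23.0% of the pair in SK-LMS-1 (21.9 to 24.2) against 46.3% in SK-UT-1 (45.2 to 47.4). Length matters here: by raw counts LDHB took 15.8% and 35.1%, and by coding length 16.9% and 36.9%. The LDHA to LDHB ratio was 2.88 times greater in SK-LMS-1 (2.67 to 3.12). The step as a whole differed little, at 476 CPM per kb in SK-LMS-1 against 525 in SK-UT-1. LDHD, the enzyme for D-lactate, had 4 and 10 counts.

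**Figure D2:**
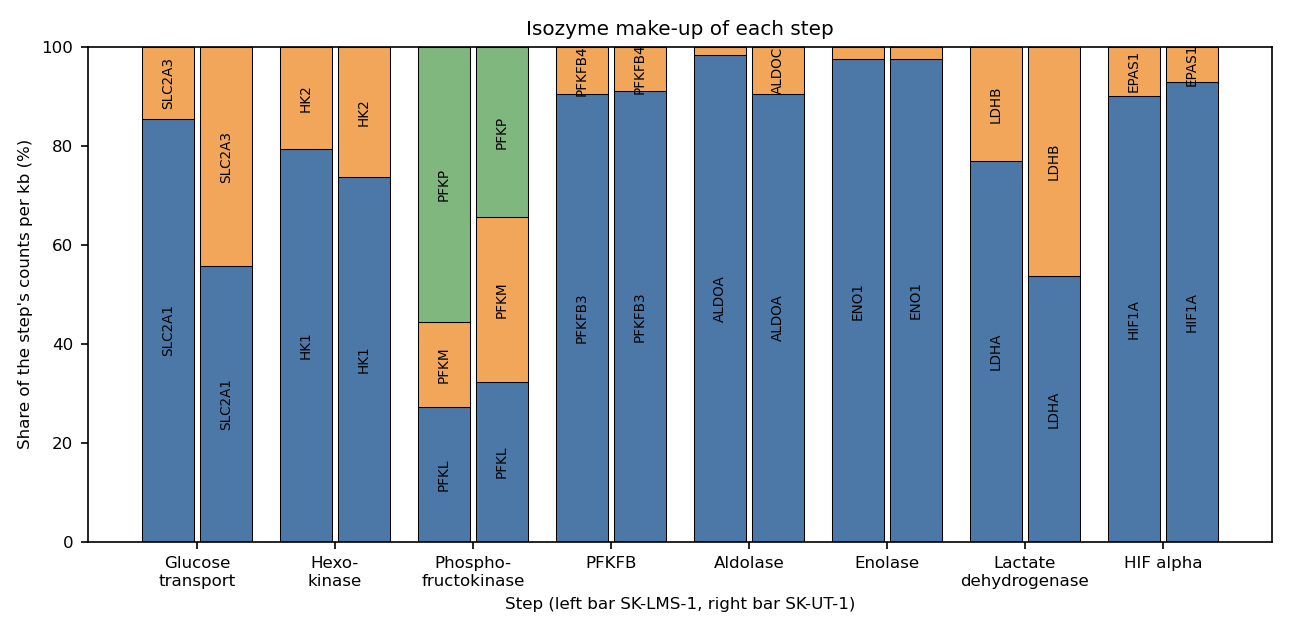
Share of each isozyme in its step (counts per kb of exon, summing to 100%), with SK-LMS-1 on the left and SK-UT-1 on the right of each pair of bars; the thin unlabelled segments are ALDOC in SK-LMS-1 and ENO2 in both. SLC2A3, PFKM, ALDOC and LDHB take larger shares in SK-UT-1, while the enolase and PFKFB bars are nearly the same.

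Across the 11 isozyme pairs compared, HIF alpha and EGLN included, 8 ratios of ratios had intervals that excluded 1. These intervals cover counting error only, and the phosphofructokinase pairs reuse the same genes. No share over other gene pairs was computed, and of all measured single genes 59.8% lay within 2-fold. The counts therefore only describe these pairs. Of the 11, 5 lay beyond 2-fold (SLC2A1 to SLC2A3, PFKP to PFKM, ALDOA to ALDOC, LDHA to LDHB, and EGLN1 to EGLN3, whose interval ran from 0.336 to 143 because EGLN3 had at most 5 counts). The leading isozyme was the same in both lines at every step by exon length. Summed over isozymes, the aldolase total was 72.1 CPM per kb in SK-LMS-1 against 76.8 in SK-UT-1, phosphofructokinase 80.3 and 62.1, and hexokinase 70.2 and 52.7. Of the glycolytic step totals, that of TPI1 differed most, followed by PGAM1 and glucose transport (36.8 and 19.0 CPM per kb, 1.93 times higher in SK-LMS-1). The glucose transport total covers SLC2A1 and SLC2A3 only and depends on that choice. SLC2A6, outside it, was at 0.599 and 10.3 CPM per kb, near SLC2A1 in SK-UT-1 (10.6). SLC2A12 (3.13 and 1.60) and SLC2A13 (3.92 and 0.869), also outside it, leaned toward SK-LMS-1. In both lines the 4 highest steps, GAPDH, enolase, lactate dehydrogenase and PKM, lay in the lower pathway.

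**Figure D3:**
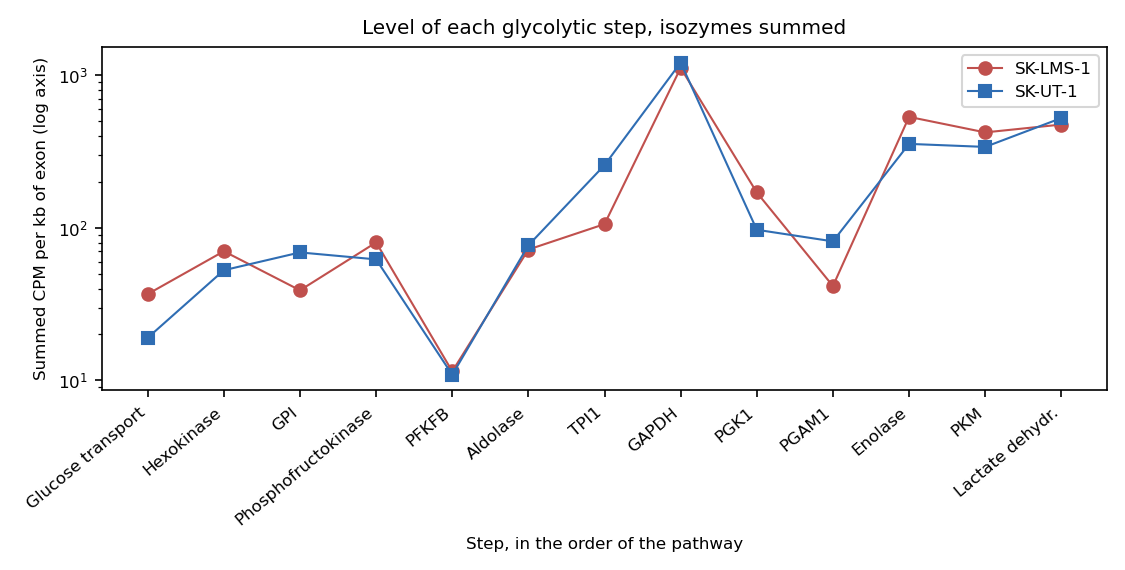
CPM per kb of exon summed over the member isozymes of each step, on a log axis, in pathway order, with circles for SK-LMS-1 and squares for SK-UT-1; the lines only guide the eye. Both lines peak at GAPDH (1121 and 1213 CPM per kb) and are lowest at PFKFB (11.4 and 10.9), and they cross at each step between GAPDH and enolase.

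As a group, the 21 glycolytic members had a median log2 ratio of 0.07, with 16 within 2-fold, 2 beyond it toward SK-LMS-1 and 3 toward SK-UT-1. These last are 9.52% and 14.3% of the group, beside 21.9% and 18.3% of all measured genes, of which 59.8% lay within 2-fold. That median turns to -0.085 with library totals and -0.07 with upper-quartile scaling, so no direction can be given for the group. HK2, PFKL, PFKFB3 and ALDOA likewise turned direction under some scaling. Position on the chromosome was shared by several members: SLC2A3, TPI1, GAPDH, ENO2 and LDHB lie in the first 34000000 bases of chromosome 12, and 4 of these 5 were higher in SK-UT-1. ENO2, the exception, starts 43503 bases beyond the end of TPI1. Of the 182 measured genes in that stretch, 53.3% were higher in SK-UT-1 by any amount, beside 49.7% of all measured genes, with 17.6% past 2-fold toward SK-UT-1 and 25.3% toward SK-LMS-1. Among the 102 of them at 20 CPM or more, 59.8% were higher in SK-UT-1 (all genes at that level 48.4%), with a median log2 ratio of -0.22 against 0.04.

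Of the 12 hypoxia members, 10 were measured, of which 5 were within 2-fold, 4 beyond it toward SK-LMS-1 and 1 toward SK-UT-1, with a median log2 ratio of 0.91. Over all measured genes, 21.9% and 18.3% passed 2-fold in these directions. The group took 0.118% of counts in SK-LMS-1 (0.115 to 0.120) against 0.0839% in SK-UT-1 (0.0819 to 0.0860). That difference rested on HIF1A and VEGFA: the other members of the group together took 0.0460% (0.0444 to 0.0476) and 0.0504% (0.0488 to 0.0520). These are shares of unscaled library totals, which lower log2 ratios by 0.15 relative to TMM scaling. The gap in the remaining members is smaller than that shift, so no direction can be given for them. The 4 targets VEGFA, NDRG1, ADM and ANKRD37 summed to 69.7 and 69.8 CPM per kb.

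Both HIF alpha genes were higher in SK-LMS-1. HIF1A, the general oxygen-regulated factor (chr14:61695401-61748259), had 3843 counts in SK-LMS-1 against 2206 in SK-UT-1, or 587 and 274 CPM, or 2.14 times the SK-UT-1 level (2.03 to 2.26). EPAS1, which encodes HIF-2 alpha (chr2:46297402-46386703), had 492 and 199 counts, or 3.04 times the SK-UT-1 level (2.57 to 3.60). HIF1A nevertheless made up most of the pair per kb in both lines, 90.2% (89.3 to 91.0) in SK-LMS-1 compared with 92.9% (91.8 to 93.8) in SK-UT-1. The HIF1A to EPAS1 ratio in SK-LMS-1 was 0.705 of that in SK-UT-1 (0.590 to 0.840).

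The oxygen sensors did not follow. EGLN1 (PHD2), the main prolyl hydroxylase acting on HIF-1 alpha, was at 1.35 times the SK-LMS-1 level in SK-UT-1 (1.23 to 1.48), at 117 and 158 CPM. EGLN3 (PHD3), itself a HIF target, had 1 count in SK-LMS-1 against 5 in SK-UT-1 and was not measured in either line. EGLN2 (PHD1) was at 1.55 times the SK-LMS-1 level in SK-UT-1 (1.24 to 1.96), but it shares most of its exons with a readthrough gene and its count is uncertain.

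Targets that act outside the cell or at its surface diverged. VEGFA, the vessel growth factor (chr6:43770209-43786486), had 1105 counts in SK-LMS-1 against 354 in SK-UT-1, or 3.83 times the SK-UT-1 level (3.40 to 4.33). Its relatives leaned the same way: VEGFB was 2.43-fold higher (2.07 to 2.84), and VEGFC, a lymphatic growth factor, had 506 counts in SK-LMS-1 against 1 in SK-UT-1 (622-fold, 111 to 24597). ADM, the vasodilator peptide adrenomedullin (chr11:10304980-10307402), went against them, with 134 and 702 counts, or 4.26 times the SK-LMS-1 level (3.54 to 5.17). CA12, a carbonic anhydrase of the cell surface, was at 1.48 times the SK-LMS-1 level in SK-UT-1 (1.24 to 1.76), at 31.0 and 45.7 CPM. CA9, the carbonic anhydrase used as a hypoxia marker, had 1 count in SK-LMS-1 against 0 in SK-UT-1. CA13, a cytosolic form, was at 4.12 and 4.72 CPM.

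Among the targets inside the cell, NDRG1, a stress-response gene, was at 36.0 CPM in SK-LMS-1 against 8.32 in SK-UT-1, or 4.33 times the SK-UT-1 level (3.29 to 5.76). BNIP3, a receptor for the removal of mitochondria, was at 1.27 times the SK-UT-1 level in SK-LMS-1 (1.17 to 1.38), at 171 and 135 CPM. BNIP3L (NIX), its relative with the same role, was 1.85-fold higher (1.72 to 1.98) in that line. ANKRD37 had 11 and 7 counts, too few to show a difference (ratio 1.93, 0.683 to 5.87). PDK1, the kinase that shuts pyruvate out of the citric acid cycle, had 208 and 140 counts, or 1.82 times the SK-UT-1 level (1.47 to 2.28). The other PDK genes split: PDK2 was at 2.12 times the SK-UT-1 level in SK-LMS-1 (1.69 to 2.68), PDK3 was at 1.88 times the SK-LMS-1 level in SK-UT-1 (1.49 to 2.39), and PDK4, the starvation-responsive form, had 11 and 58 counts (4.29-fold higher in SK-UT-1, 2.23 to 9.07).

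**Figure D4:**
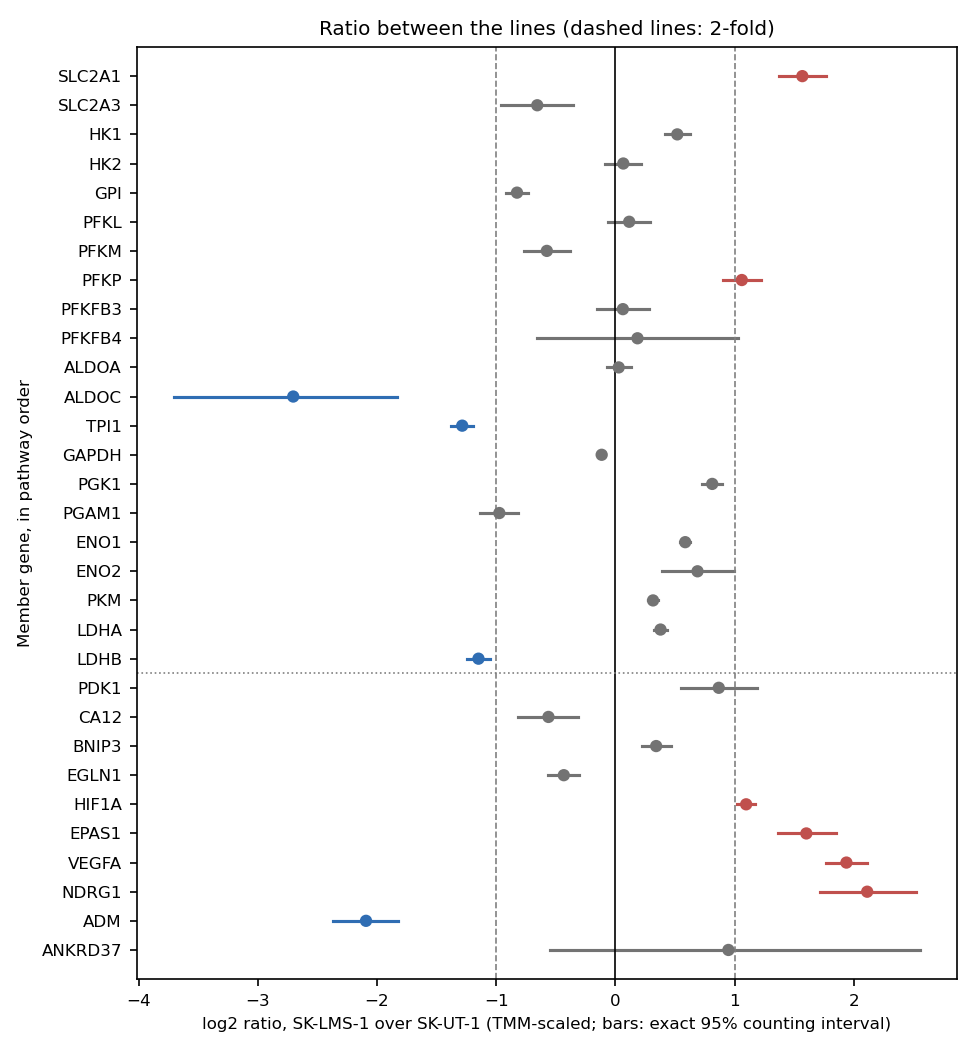
log2 ratio of SK-LMS-1 over SK-UT-1 for the 31 measured members, with exact 95% counting intervals as bars, 2-fold as dashed lines and the hypoxia genes under the dotted line. SLC2A1, PFKP, HIF1A, EPAS1, VEGFA and NDRG1 lie right of the 2-fold line and ALDOC, TPI1, LDHB and ADM left of it, and the interval of PFKP crosses the line.

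Genes that handle pyruvate and lactate after glycolysis differed in both directions. Of 16, all measured, 4 were higher by 2-fold or more in SK-LMS-1 against 5 in SK-UT-1 (median log2 ratio -0.19). These are 25.0% and 31.2% of the list, beside 21.9% and 18.3% of all measured genes. SLC16A3 encodes MCT4, the lactate exporter of glycolytic cells, and had 134 counts in SK-LMS-1 against 21 in SK-UT-1 (7.84-fold, 4.93 to 13.1). SLC16A7 (MCT2), a high-affinity importer, had 310 and 2 counts (190.4-fold, 52.3 to 1579). EMB, embigin, a chaperone that carries MCT2 to the membrane, had 473 counts in SK-LMS-1 against 0 in SK-UT-1. With the 0 raised to a floor of 3 counts, EMB was 194-fold higher in SK-LMS-1. The lower limit of its exact counting interval was 157-fold. Both partners of that pair thus had at most 2 counts in the SK-UT-1 library. PDP1, the phosphatase that reverses the action of the PDK enzymes, was at 5.98 times the SK-UT-1 level in SK-LMS-1 (5.21 to 6.89). The genes that passed 2-fold toward SK-UT-1, named after their values were seen, included SLC16A1 (MCT1), the widely expressed lactate transporter, at 183 and 420 CPM (2.29-fold, 2.15 to 2.45). PDPR, the regulatory subunit of the PDP1 phosphatase, was 3.43-fold higher in that line (2.93 to 4.02), and MPC2, a subunit of the mitochondrial pyruvate carrier, 2.90-fold (2.04 to 4.21). PDHX, a component of pyruvate dehydrogenase, and PDP2, another phosphatase of that complex, were 2.09-fold (1.81 to 2.42) and 2.01-fold (1.63 to 2.48) higher there. MPC1, the partner of MPC2 in the carrier, leaned toward SK-LMS-1, at 16.5 and 8.32 CPM (1.98-fold, 1.45 to 2.73).

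Beside the 59.8% of all measured genes that lay within 2-fold, the neighbouring pathways gave the following counts. Of 18 citric acid cycle genes, 16 were within 2-fold and 2 were higher in SK-UT-1: SDHA, a subunit of succinate dehydrogenase, by 2.52-fold (2.26 to 2.80), and IDH2, mitochondrial isocitrate dehydrogenase, by 2.13-fold (1.83 to 2.49). Of 7 measured pentose phosphate genes, 5 were within 2-fold and 2 were higher in SK-LMS-1. Among these was PGLS, which hydrolyses 6-phosphogluconolactone, with 91 and 39 counts (2.87-fold, 1.95 to 4.28).

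Of 15 measured genes that modify or bind HIF, 13 were within 2-fold and 2 were higher in SK-LMS-1. CITED2, which competes with HIF for its coactivator p300, was at 77.4 and 9.69 CPM (7.98-fold, 6.28 to 10.3), and USP20, a deubiquitinase, was 2.32-fold higher (1.76 to 3.08). A further 45 hypoxia targets, 44 of them measured, had 17 genes within 2-fold, 20 beyond it toward SK-LMS-1 and 7 toward SK-UT-1 (median log2 ratio 0.64). These are 45.5% and 15.9% of the measured targets, beside 21.9% and 18.3% of all measured genes. The list was chosen with earlier results of these data known, so these shares only describe it. Some of the largest ratios belong to genes that modify collagen. Others of that kind in the list, P4HA1, P4HA2, PLOD1 and LOXL2, were within 2-fold, and P4HA1 and PLOD1 leaned toward SK-UT-1. PLOD2, which hydroxylates collagen lysines, had 4296 and 7 counts (754-fold, 366 to 1876), and LOX, which cross-links collagen, had 1447 and 14 (127-fold, 75.4 to 233). RRAGD, a GTPase of nutrient sensing, went the other way with 4 and 207 counts (42.1-fold, 16.2 to 156).

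**Figure D5:**
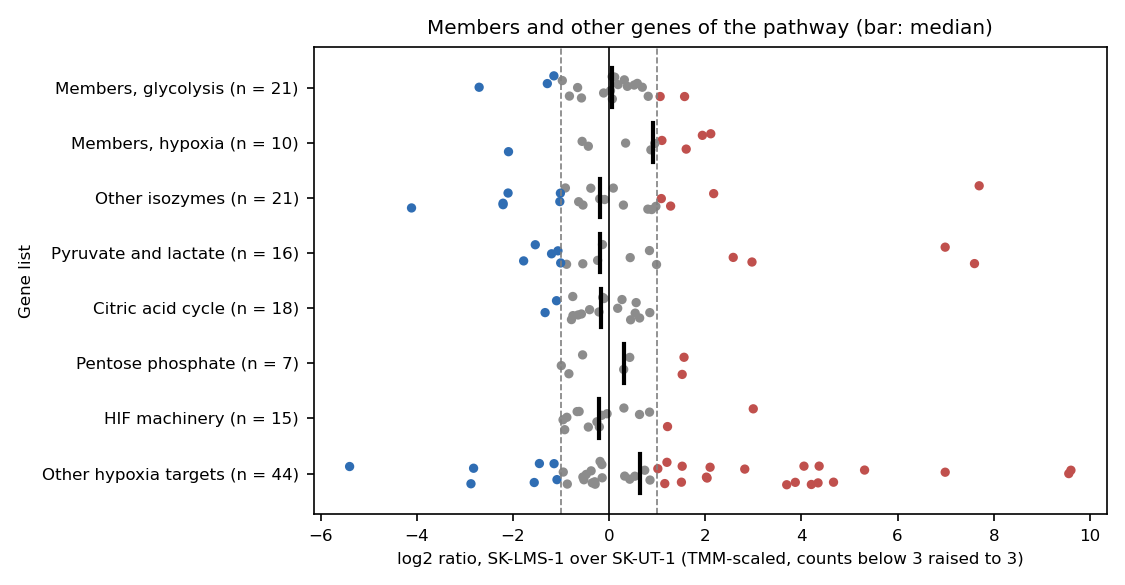
log2 ratio of SK-LMS-1 over SK-UT-1 for each measured gene of the 2 member groups and 6 other lists, with the median as a black bar and 2-fold as dashed lines; counts below 3 were raised to 3, which draws VEGFC, SLC16A7 and EMB nearer to 0 than their ratios. The glycolytic members lie close to 0 (median 0.07), while the hypoxia members (0.91) and the other hypoxia targets (0.64) extend to the right. Members and lists were chosen with earlier results of these data known.

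Near copies limit some of these levels: 15 members have named pseudogenes in GENCODE v29, led by GAPDH with 62, BNIP3 with 39 and PGAM1 with 13, and reads that fit several copies may be lost. No member shared exons with another gene on its own strand.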

How the data were processed

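Total RNA was made into 1 stranded library per line, per the labels. The authors deposited raw counts per gene, made with featureCounts 2.0.1 on hg38 with a UCSC annotation, strand setting 1, per the file headers; a fragment over several genes was counted for each. Of the alignment step, the sources used here give no tool name. The count table has 2 further columns that match no sample and were not used.

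From these counts, CPM were computed with library sizes scaled by TMM (edgeR 4.0.16, R 4.3.3) over libraries of 6906280 and 7635850 counts, where 1 CPM equals 6.55 and 8.05 counts. Ratios carry exact conditional binomial 95% intervals, shares exact Clopper-Pearson intervals, and ratios of ratios exact conditional odds ratio intervals (scipy 1.17.1). These intervals and the floor of 3 counts cover counting error only, and amplified fragments are not independent molecules. A share per kb weighted by length took its interval from the counts of the pair. With 1 library per line no test was run. Members and lists were chosen with earlier results of these data known. Every measured member is given. Other genes were named when among the 4 largest ratios of their list, at least 2-fold and at 5 CPM, or as isozymes at 1 CPM, and a few that met this rule are not reported here; the marker genes, the chromosome 12 stretch and the printed promoters were picked for illustration. Printed stretches end before any exon of the gene in the deposited table or GENCODE v29, apart from the sites of 30 bases. Alternatives were library totals, DESeq2 1.42.0 size factors, upper quartile scaling, other filters, floors and size rules, and other lengths. The procedures were tested on data simulated with counting error only, so that check does not cover variation between cultures or libraries.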

Additional observations from a re-analysis of the deposited data

How the results depend on the processing

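A size rule of 1.5-fold gave 11 members toward SK-LMS-1 and 7 toward SK-UT-1, and a rule of 4-fold gave 1 and 2. The glycolytic median was -0.085 with library totals; the cause is the shift of all ratios by that scaling. Library totals and upper quartile scaling each gave 4 toward SK-LMS-1 and 5 toward SK-UT-1, DESeq2 size factors gave 6 and 4, and asking for the whole interval beyond 2-fold gave 5 and 4. The hypoxia median stayed between 0.61 (no filter) and 0.91. Fold changes of 14 members left their counting interval with library totals, 13 with the upper quartile and 0 with DESeq2. Of 32 isozyme shares with an interval, 20 left it without division by length and 16 with coding length, a choice made after seeing the data, as was the 20 CPM filter. Of the 6 phosphofructokinase shares, which have no interval, 4 and 2 moved by 3 percentage points or more. Thinning the deeper library moved 0 of either. An alternative that used RefSeq protein lengths was not run. No paired analysis was possible because each line had 1 library and no test was made. Depth limits PFKFB4, ALDOC, ANKRD37, EGLN3 and CA9, with fewer than 100 counts in each library.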
